A study of Mus musculus with 6 samples.

Results

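Neuroblast and cell-cycle genes were followed in the nucleus accumbens, a ventral striatal region of the reward system, in C57BL/6 mice given 7 daily intraperitoneal injections. One group of 3 libraries received cocaine at 20 mg/kg body weight and the other group of 3 libraries received saline, and both were taken at 4 h of withdrawal. The labels give no age, sex or genotype and do not state how many animals went into each library. The list held 33 genes, of which 32 were found by symbol among the 21203 symbols of the authors' deposited table, and all 32 were tested by the authors. The remaining gene, Nrep, was found only through its Ensembl identifier, under the older symbol D0H4S114, and is given separately. The list was chosen because Sox11, Ccnd2 and Cd24a fell in this same table, so every fold change below is a description of that contrast and no new test was run on it. The table gives 1 FPKM value (fragments scaled to transcript length and library total) per group, with no value per library, so no spread between libraries can be shown and read depth is unknown. All FPKM values, log2 fold changes (cocaine over saline), p-values and q-values below come from the authors' deposited table, in which a gene was called at q < 0.05.

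In the adult mouse forebrain, stem cells in the wall of the lateral ventricle give rise to dividing progenitors and then to neuroblasts, which migrate to the olfactory bulb and become interneurons. The accumbens lies close to the anterior end of that wall. Neuroblasts are known for SoxC and Dlx transcription factors, for cytoskeletal and adhesion proteins of growing processes, and for cyclin D2, while replication and mitosis genes mark the dividing cells before them. Several of these genes, among them Gap43, Ncam1 and the stathmins, are also made by mature neurons. In bulk tissue, fewer cells of a type and less RNA per cell cannot be told apart.

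Of the 32 genes, 4 fell by the deposited q and 0 rose: Marcksl1, Ccnd2, Sox11 and Cd24a. All 4 belong to the 17 neuroblast genes. None of the 13 dividing-cell genes and neither of the progenitor genes Sox2 and Nes passed. Ccnd2, a G1 cyclin of neural progenitors, was counted with the neuroblast genes, so this division of the calls depends on where it is placed. The dividing-cell genes also had lower levels, with a saline median of 1.56 FPKM against 10.5 FPKM for the neuroblast genes. Across the 14959 tested records 0.709% were called lower and 0.521% higher, 1.23% in all. The rule rests on the same contrast, so nothing is read from the members' share. As a description, 29 of 32 members had deposited log2 fold changes below 0, where 59.0% of the tested records with a finite value lay below 0. Values below -0.2 were found for 17 of 32 members and for 9.48% of tested records. Leaving out Sox11, Ccnd2 and Cd24a, 26 of 29 members lay below 0 and 14 lay below -0.2. Those 29 were also listed with earlier results of these data known, so leaving out 3 genes does not undo the choice. The median log2 fold change was -0.24 over the 32 members, -0.17 without those 3 genes, and -0.02 over all tested records. At an unadjusted deposited p under 0.05 there were 10 members lower and 0 higher, with 3.74% of tested records lower and 2.02% higher at that p. The nearest members on either side of the q threshold were Cd24a (q = 0.0138) and Mki67 (q = 0.190), a wide gap.

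**Figure D1:**
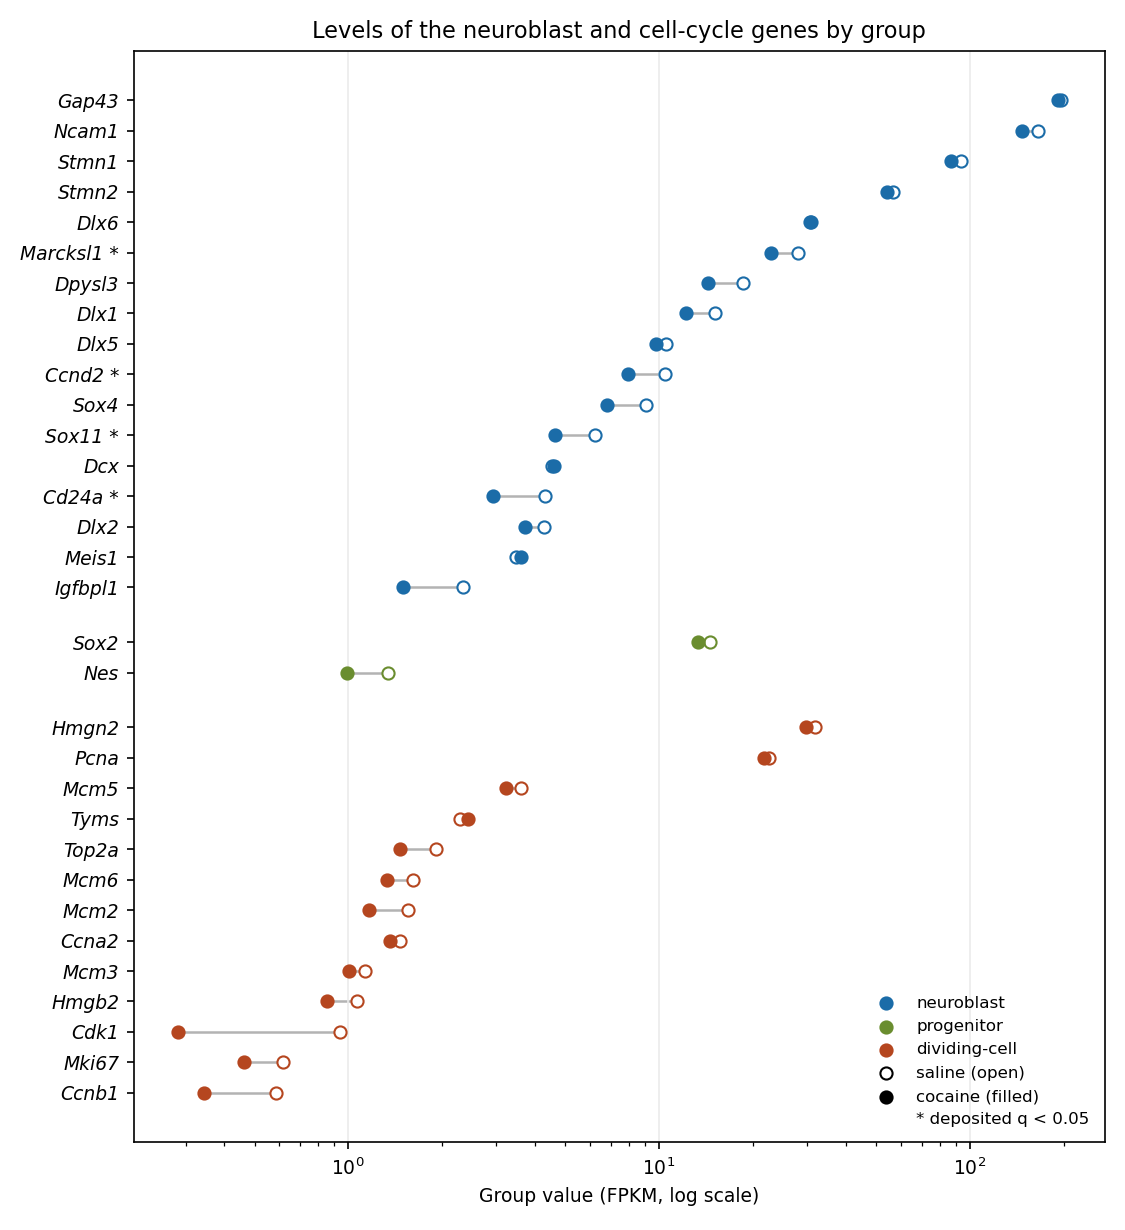
Saline (open) and cocaine (filled) group values of the 32 members in FPKM on a log axis, grouped as neuroblast, progenitor and dividing-cell genes, with an asterisk for a deposited q below 0.05. The filled point lies left of the open point for 29 members, and Dcx, Meis1 and Tyms are the exceptions. No error bars are drawn because the table holds 1 value per group.

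Levels spanned a wide range in the saline group, from 0.587 FPKM for Ccnb1 to 195.8 FPKM for Gap43. The neuroblast genes had a median of 10.5 FPKM and the dividing-cell genes a median of 1.56 FPKM, against 8.82 FPKM over all tested records. Gap43, a growth cone phosphoprotein, Ncam1 (165 FPKM), a cell adhesion molecule, and Stmn1 (93.9 FPKM), a tubulin-binding protein, stood at the 98.0, 97.5 and 94.6 percentiles of tested records. Mki67, the source of the Ki-67 proliferation antigen, stood at the 9.0 percentile and Cdk1 at the 13.2 percentile. The dividing-cell genes were thus mostly near the low end of what was tested, and 3 of the 13 (Cdk1, Mki67 and Ccnb1) were below 1 FPKM in both groups.

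The SoxC transcription factors Sox11 and Sox4, which drive the neuronal programme in newborn neurons, had similar values. Sox11 fell from 6.24 FPKM after saline to 4.64 FPKM after cocaine (log2 fold change -0.43, q = 0.00290). Sox4 was at 9.05 and 6.79 FPKM (log2 fold change -0.42, the authors' p = 0.0122), and its q of 0.527 did not pass. The table lists Sox4 in 4 records under a pair of gene identifiers: 2 tested records with the same values, counted once here, and 2 marked as holding too little data (2.02 and 1.75 FPKM). An annotated noncoding gene on the opposite strand shares 2616 exon bases with Sox4, and the strand setting of the authors' counting is not given, so the Sox4 value is uncertain.

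Ccnd2 encodes cyclin D2, the G1 cyclin of neural progenitors. It fell from 10.4 to 7.96 FPKM in the authors' deposited table (log2 fold change -0.39, q listed as 0). The other D-type cyclins, read from a companion list, did not pass: Ccnd1 was at 6.42 and 6.49 FPKM (log2 fold change 0.01, the authors' p = 0.940) and Ccnd3 at 5.89 and 5.52 FPKM (-0.09, p = 0.341). Antisense genes also share exon bases with Ccnd2 (368 and 372), which leaves the same uncertainty. Cd24a, a glycosylphosphatidylinositol-anchored surface protein of immature neurons that ependymal cells also carry, fell from 4.31 to 2.93 FPKM (-0.56, q = 0.0138). Marcksl1, an actin-regulating relative of the protein kinase C substrate MARCKS, fell from 28.0 to 23.0 FPKM (-0.28, q = 4.78e-05). It was the most abundant of the 4 genes that fell and is the one that the stated reason for the list does not name. A processed pseudogene, Marcksl1-ps4, is annotated, and reads could be shared with it.

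Dcx, which encodes doublecortin and is the usual marker of migrating neuroblasts, did not share the pattern. It was at 4.51 FPKM after saline and 4.60 FPKM after cocaine (log2 fold change 0.03, the authors' p = 0.787). Igfbpl1, an insulin-like growth factor binding protein relative enriched in young neurons, had the most negative value of the neuroblast genes (2.33 and 1.502 FPKM, -0.64) but did not pass (the authors' p = 0.0807). Meis1, a homeobox factor of the same lineage, was at 3.46 and 3.61 FPKM (0.06, the authors' p = 0.764), a value that is uncertain because other annotated genes share 896 exon bases with it on the opposite strand and 1029 on the same strand. Of these 3 genes only Igfbpl1 had a value below 0, and none passed by q.

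The 4 Dlx homeobox genes specify forebrain GABAergic neurons and remain active in striatal interneurons and neuroblasts. Dlx1 and Dlx2 are next to each other among protein-coding genes in RefSeq (GRCm38.p6), as are Dlx5 and Dlx6. Dlx1 was at 15.2 and 12.2 FPKM (log2 fold change -0.32, the authors' p = 0.0427) and its neighbour Dlx2 at 4.27 and 3.69 FPKM (-0.21, p = 0.204). Dlx5 was at 10.5 and 9.77 FPKM (-0.11, the authors' p = 0.412) and Dlx6 at 30.9 and 30.6 FPKM (-0.02, p = 0.893). None passed by q in the authors' deposited table, and the difference between the pairs was not tested. Dlx1 shares 335 exon bases with the antisense gene Dlx1as, and Dlx6 shares 104 with Dlx6os2 on the opposite strand, so these values are uncertain in the same way as that of Sox4.

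Beside Marcksl1, which fell, the abundant cytoskeletal and adhesion genes Gap43, Stmn1, Stmn2 and Ncam1 had values from -0.17 to -0.03 and did not pass. Dpysl3 and Nrep, at lower levels, had more negative values and did not pass either. Gap43 was at 195.8 and 191.7 FPKM (log2 fold change -0.03, the authors' p = 0.192). Stmn1 was at 93.9 and 87.1 FPKM (-0.11, the authors' p = 0.00456, q = 0.267), a small difference with one of the lower p-values of the list. Stmn2, the neuron-specific stathmin, was at 56.6 and 54.0 FPKM (-0.07, the authors' p = 0.0660). Ncam1, which shares 417 exon bases with an antisense gene, was at 165 and 147 FPKM (-0.17, the authors' p = 0.112). Dpysl3, a collapsin response mediator protein of growing axons, was at 18.6 and 14.3 FPKM (-0.38, the authors' p = 0.0519). Nrep, a small protein of regenerating and developing neurons matched through its identifier, was at 15.8 and 13.6 FPKM (-0.21, the authors' p = 0.0430), and none of these 6 genes passed by q. By level, the 6 neuroblast genes of at least 20 FPKM in the saline group had a median of -0.09 and the 11 below it a median of -0.38.

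The progenitor genes gave 2 values below 0 that missed the threshold. Sox2, a transcription factor of neural stem cells that astrocytes also express, was at 14.5 and 13.4 FPKM (log2 fold change -0.12, the authors' p = 0.180). Nes, the intermediate filament nestin, was at 1.34 and 0.994 FPKM (-0.43, the authors' p = 0.0259, q = 0.841).

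Of the 13 dividing-cell genes, 12 had deposited log2 fold changes below 0 and none passed by q, with 2 lower (Mki67 and Mcm2) and 0 higher at an unadjusted p under 0.05. Their median was -0.28. Among the mitotic genes, Cdk1 and Ccnb1 had the most negative values of the 13, at levels below 1 FPKM. Cdk1, the kinase that drives entry into mitosis, was at 0.945 and 0.283 FPKM (-1.74), yet the authors' p was 0.179. Ccnb1, its cyclin B1 partner, was at 0.587 and 0.344 FPKM (-0.77, the authors' p = 0.293), and Top2a, the topoisomerase that untangles replicated chromosomes, at 1.92 and 1.47 FPKM (-0.39, p = 0.287). Mki67 was at 0.618 and 0.463 FPKM (-0.42, the authors' p = 0.00290, q = 0.190), the smallest p of the dividing-cell genes. Ccna2, cyclin A2, was at 1.47 and 1.37 FPKM (-0.10, the authors' p = 0.616) and shares 510 exon bases with Exosc9 on the opposite strand. In all, 7 members have such an overlap on the opposite strand. Among the mitotic genes the order of the ratios did not follow the order of the p-values. Cdk1 had the most negative ratio and Mki67 the smallest p.

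The Mcm genes encode subunits of the replicative helicase, and all 4 members lay below 0 in the authors' deposited table. Mcm2 was at 1.56 and 1.17 FPKM (log2 fold change -0.42, the authors' p = 0.00631, q = 0.337). Mcm6 was at 1.61 and 1.33 FPKM (-0.28, the authors' p = 0.102). Mcm5, the most abundant of them, was at 3.61 and 3.21 FPKM (-0.17, the authors' p = 0.143) and Mcm3 at 1.13 and 1.003 FPKM (-0.17, p = 0.357). None passed by q. Pcna, the sliding clamp of DNA polymerase, which also serves in DNA repair, was at 22.6 and 21.7 FPKM (-0.06, the authors' p = 0.478), well above the Mcm genes in level. Tyms, thymidylate synthase, was the 1 dividing-cell gene above 0 (2.29 and 2.42 FPKM, 0.08, the authors' p = 0.601). The chromatin proteins Hmgb2 (1.07 and 0.854 FPKM, -0.32, the authors' p = 0.157) and Hmgn2 (31.7 and 29.7 FPKM, -0.10, p = 0.412) did not pass either. Pcna, Tyms, Hmgn2, Ccnb1, Stmn1 and Marcksl1 are the 6 members with processed pseudogenes annotated under their own names, so reads could be divided there.

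**Figure D2:**
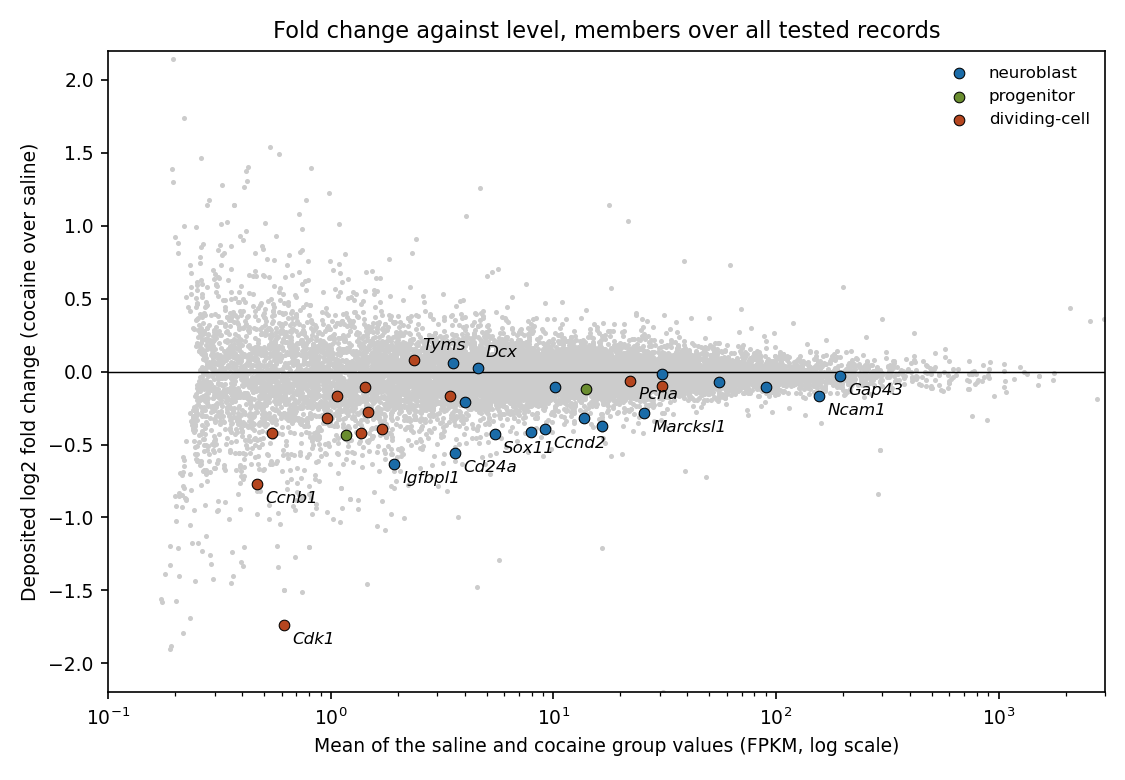
Deposited log2 fold change (cocaine over saline) against the mean of both group values in FPKM on a log axis, with all tested records in grey and the 32 members coloured by role. The grey cloud widens toward low FPKM, where Cdk1 (-1.74) and Ccnb1 (-0.77) lie, and 30 records outside the axes are not drawn.

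The spread of all records depends on level, so the members were also set beside records of like level. The list was chosen with results of this contrast known, and matching by level does not undo that. The values below are therefore descriptions. Between 5 and 20 FPKM in the higher group, all 7 members lay below 0 with a median of -0.38, and without Sox11 and Ccnd2, which prompted the list, all 5 did with a median of -0.32. The 5114 tested records there had a median of -0.02, with 58.4% below 0. At 20 FPKM or more all 8 members lay below 0, with a median of -0.08 beside -0.02 for all 4373 records. Between 1 and 5 FPKM 11 of 14 lay below 0 with a median of -0.24, and 10 of 13 with a median of -0.21 without Cd24a, beside -0.03 over 3489 records. Under 1 FPKM all 3 members lay below 0 (Cdk1, Ccnb1 and Mki67), beside 57.4% of the 1972 records there. Across the 32 members Spearman's rho between saline FPKM and log2 fold change was 0.49, a description over genes that share the same libraries.

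Whether immature and dividing genes differed could not be settled from these medians. The neuroblast median was -0.21 and the dividing-cell median -0.28, a difference of 0.07. With a pseudocount of 1 FPKM the medians were -0.17 and -0.15, which turns the direction of the difference. Among members of at least 1 FPKM they were -0.21 and -0.17, and among members of at least 5 FPKM -0.23 and -0.08. At 5 FPKM the dividing-cell value rests on Pcna and Hmgn2 alone. The plot of medians by setting shows the same exchange of order. No test of the difference was made, because the table gives no library values and the members were chosen from this contrast.

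**Figure D3:**
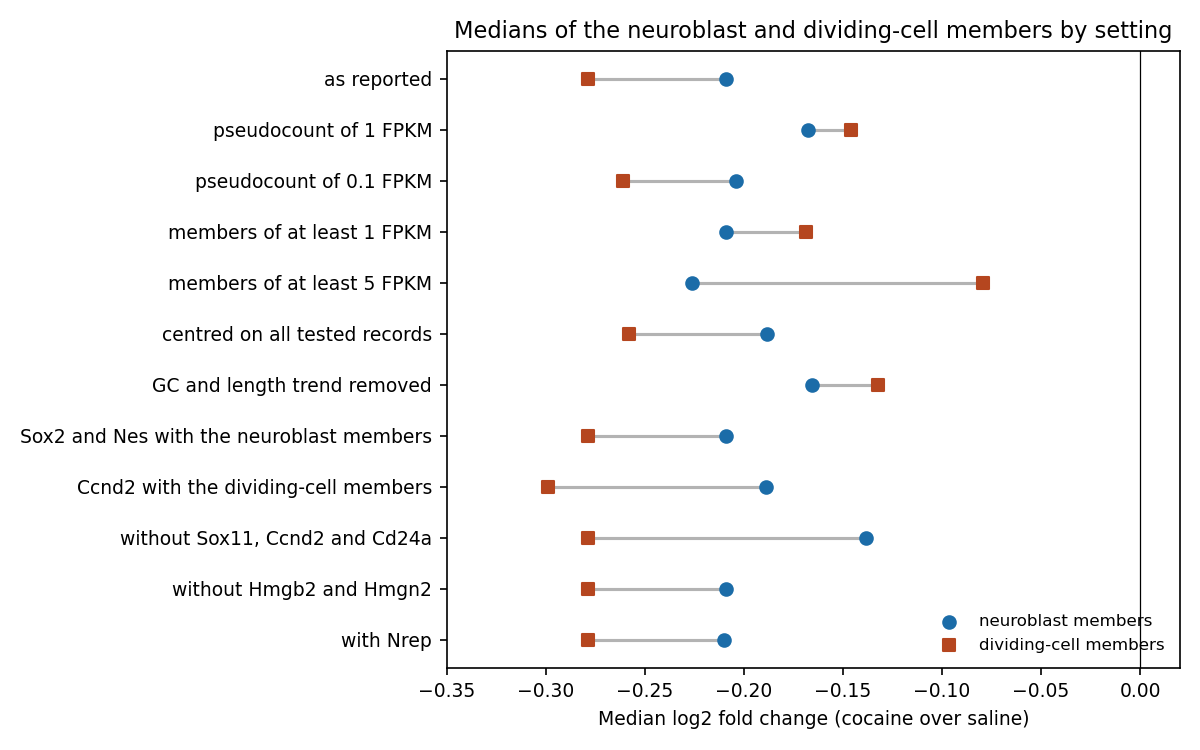
Median log2 fold change of the neuroblast members (circles) and of the dividing-cell members (squares) under each processing setting, with 1 setting per row. All medians lie below 0, and the squares lie right of the circles with a pseudocount of 1 FPKM, with a minimum of 1 or 5 FPKM and once the trend with GC content and length was taken out. At 5 FPKM the square rests on Pcna and Hmgn2 alone. The trend-removed square leaves out Cdk1, Mki67 and Ccnb1, as does the square at 1 FPKM.

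Promoter sequence itself was not used to choose the genes. The dividing-cell genes were listed for their cell-cycle role, so motifs that go with that role are no independent result. Cell-cycle genes are commonly controlled through E2F sites, which serve the G1/S genes, and through the cell cycle homology region (CHR) with CCAAT boxes bound by NF-Y, which serve the G2/M genes. RefSeq promoters (GRCm38.p6, from 250 bases before to 50 bases after the start, 1 per gene) were matched for 21 of the 33 genes and searched on both strands for TTTGAA (CHR), CCAAT (NF-Y) and TTTCGCGC, TTTGGCGC or TTTCCCGC (E2F). The following 6 are shown because they carry these letters in genes discussed above: Cdk1 and Top2a for mitosis, Mcm6 and Mcm5 for replication, and the SoxC pair for comparison. Each is written 5′ to 3′ on the strand of the gene, with every match to any of the motifs in capitals. They lie at chr10:69352863-69353162, minus strand (Cdk1), chr11:99024140-99024439, minus strand (Top2a), chr1:128359656-128359955, minus strand (Mcm6), chr8:75109259-75109558, plus strand (Mcm5), chr12:27342669-27342968, minus strand (Sox11) and chr13:28953650-28953949, minus strand (Sox4). The bases after the start matched a GENCODE transcript for Cdk1, Top2a and Sox4 and did not for Mcm6, Mcm5 and Sox11, whose start is therefore less certain.
Cdk1: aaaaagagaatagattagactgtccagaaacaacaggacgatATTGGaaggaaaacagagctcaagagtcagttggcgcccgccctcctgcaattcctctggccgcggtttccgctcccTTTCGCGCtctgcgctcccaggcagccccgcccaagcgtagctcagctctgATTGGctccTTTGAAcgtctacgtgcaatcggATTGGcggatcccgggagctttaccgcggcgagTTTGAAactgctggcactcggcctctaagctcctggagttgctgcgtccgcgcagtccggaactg
Top2a: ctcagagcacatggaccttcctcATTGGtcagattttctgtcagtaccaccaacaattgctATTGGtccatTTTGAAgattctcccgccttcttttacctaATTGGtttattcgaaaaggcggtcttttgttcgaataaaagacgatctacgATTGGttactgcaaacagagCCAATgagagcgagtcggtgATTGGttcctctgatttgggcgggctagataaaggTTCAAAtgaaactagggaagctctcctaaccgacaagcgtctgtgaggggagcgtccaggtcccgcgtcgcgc
Mcm6: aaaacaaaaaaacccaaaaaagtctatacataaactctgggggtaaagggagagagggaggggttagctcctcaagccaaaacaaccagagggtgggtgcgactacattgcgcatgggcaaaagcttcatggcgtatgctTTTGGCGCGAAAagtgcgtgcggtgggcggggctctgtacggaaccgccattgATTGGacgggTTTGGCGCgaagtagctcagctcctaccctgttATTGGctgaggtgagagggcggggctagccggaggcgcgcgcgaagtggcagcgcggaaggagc
Mcm5: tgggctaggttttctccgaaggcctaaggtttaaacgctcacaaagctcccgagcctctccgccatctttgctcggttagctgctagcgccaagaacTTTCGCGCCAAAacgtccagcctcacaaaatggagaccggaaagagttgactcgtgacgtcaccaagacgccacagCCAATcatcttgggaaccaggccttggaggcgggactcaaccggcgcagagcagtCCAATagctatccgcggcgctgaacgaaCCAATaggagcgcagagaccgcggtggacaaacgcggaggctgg
Sox11: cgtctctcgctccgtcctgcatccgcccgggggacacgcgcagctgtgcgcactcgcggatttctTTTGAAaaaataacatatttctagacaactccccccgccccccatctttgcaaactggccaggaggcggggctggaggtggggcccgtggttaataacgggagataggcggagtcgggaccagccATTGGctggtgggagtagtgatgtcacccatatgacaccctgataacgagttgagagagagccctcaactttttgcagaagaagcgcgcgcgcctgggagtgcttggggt
Sox4: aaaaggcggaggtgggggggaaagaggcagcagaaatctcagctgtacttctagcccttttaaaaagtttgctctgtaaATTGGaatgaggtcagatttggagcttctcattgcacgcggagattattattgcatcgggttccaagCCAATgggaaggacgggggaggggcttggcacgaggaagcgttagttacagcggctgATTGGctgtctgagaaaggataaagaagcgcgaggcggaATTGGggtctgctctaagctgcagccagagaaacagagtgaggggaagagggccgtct

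In the Cdk1 promoter a CHR match starts 15 bases before the annotated start, another lies farther upstream, and an E2F match and 3 CCAAT boxes stand in the same window. Top2a holds 6 CCAAT boxes and 2 CHR matches and no E2F match. Mcm6 holds 3 E2F matches and 2 CCAAT boxes and Mcm5 holds 2 E2F matches and 3 CCAAT boxes, with no CHR match in either, and some of the E2F matches overlap each other on opposite strands. Sox11 holds 1 CHR match and 1 CCAAT box, and Sox4 holds 4 CCAAT boxes. Over the matched genes, the E2F letters were found in 4 of 12 dividing-cell promoters (Cdk1, Mcm3, Mcm5 and Mcm6) and 0 of 7 neuroblast promoters, beside 1.91% of all 27025 promoters and 3.38% of those of tested genes. The CHR letters were in 5 of 12 dividing-cell promoters (Cdk1, Top2a, Mki67, Mcm2 and Hmgb2) and 1 of 7 neuroblast promoters, beside 18.1% of all promoters and 11.5% of those of tested genes. CCAAT boxes were in 11 of 12 and 6 of 7, beside 37.9% and 38.8%. The E2F letters are rare in promoters at large, so 0 of 7 neuroblast promoters is too small a count to set against the dividing-cell genes. The matches describe the letters in these windows and say nothing of binding in the accumbens.

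Companion lists of the same biology, which hold no member, were compared by counts. Of 22 tested neuroblast and neurogenic niche genes 14 lay below 0, with a median of -0.05. Tubb2b, a beta-tubulin of young neurons, fell (119 to 108 FPKM, log2 fold change -0.14, q = 7.83e-08 in the authors' deposited table) and the other 21 did not pass. The transcription factors of the hippocampal and cortical lineages Eomes (0.0584 and 0.0694 FPKM) and Neurod1 (0.0998 and 0.115 FPKM) were marked as not tested. Of 34 tested cell-cycle genes 27 lay below 0, with a median of -0.13, and 1 fell, Tubb5 (197 to 178 FPKM, -0.15, q = 0.000510), a beta-tubulin found in most cells. At an unadjusted p under 0.05 there were 4 lower and 0 higher in that list. Its 20 genes of at least 1 FPKM had a median of -0.098. Of 9 tested cell-cycle inhibitors 7 lay below 0 with a median of -0.08, and 0 passed by the authors' test, also 0 at an unadjusted p under 0.05. The 10 tested stem cell and radial glia genes had a median of -0.27 with 8 below 0, and only Thbs4, a thrombospondin of ventricular wall astrocytes, fell (1.10 to 0.386 FPKM, -1.51, q = 2.46e-07).

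**Figure D4:**
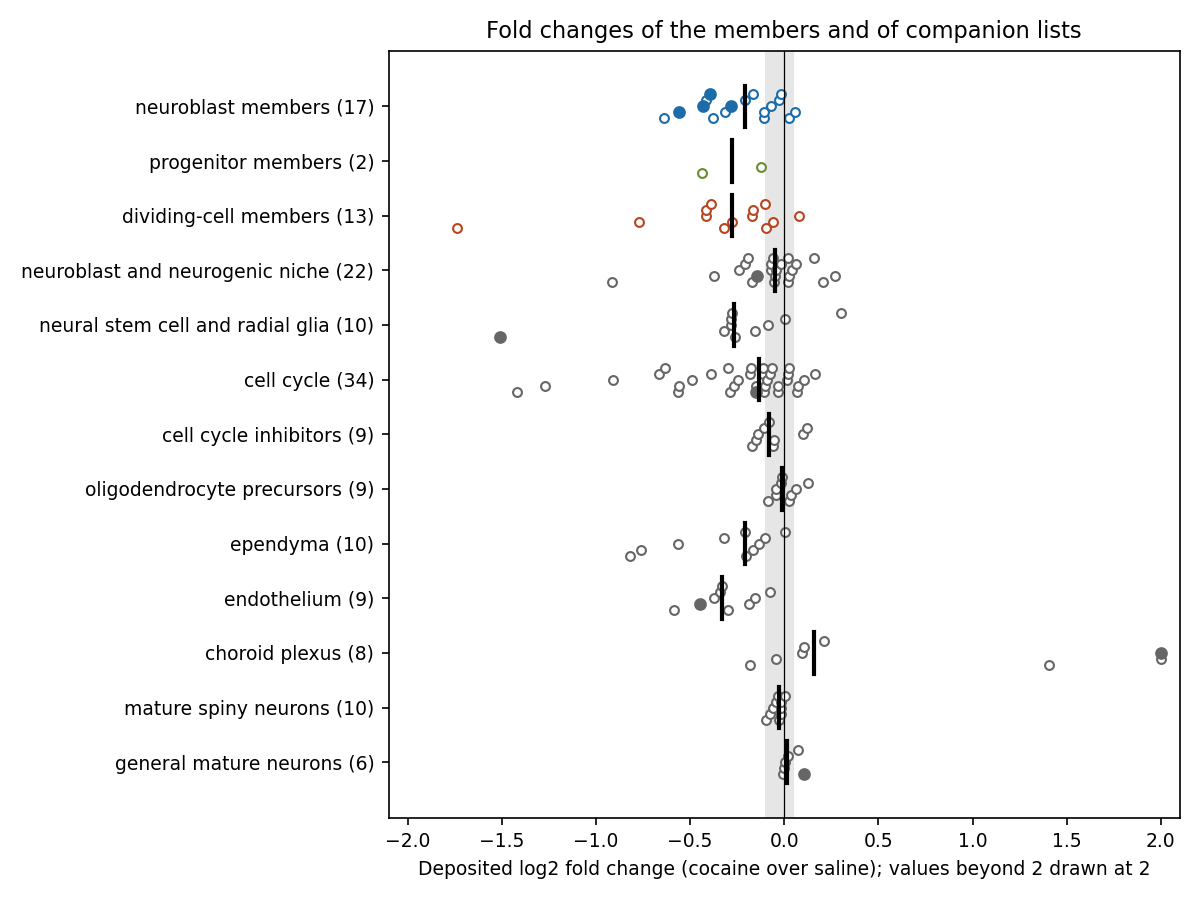
Deposited log2 fold changes of the members and of 10 companion lists, with 1 circle per gene, filled where the deposited q was below 0.05, a black bar at each list's median and a grey band from the 25th to the 75th percentile of all tested records (-0.10 to 0.05). The neuroblast, progenitor and dividing-cell members and the cell-cycle, stem cell, ependymal and endothelial lists have medians left of the band, and choroid plexus genes beyond 2 are drawn at 2.

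Markers of other cell types in the dissected tissue were read from the same table, and few passed by q. All 9 endothelial markers lay below 0, with a median of -0.33 and a summed level of 44.0 FPKM after saline and 36.1 FPKM after cocaine, and Cldn5, a tight junction protein, fell (10.2 to 7.46 FPKM, q = 0.00123). Of 10 tested ependymal markers, cells that line the ventricle beside the neuroblasts, 9 lay below 0 with a median of -0.21 (summed level 19.9 and 17.3 FPKM), and 0 passed by the authors' test, 0 also at an unadjusted p under 0.05. Foxj1, their defining transcription factor, was at 1.93 and 1.67 FPKM. The 4 ependymal markers of at least 1 FPKM had a median of -0.15. Of 8 tested choroid plexus genes 6 lay above 0 (summed level 49.4 and 62.6 FPKM), and Ttr rose (0.668 to 10.8 FPKM, q listed as 0) and made up most of the difference in the sum. The median of that list was 0.16, and 0.03 among its 4 genes of at least 1 FPKM. Oligodendrocyte precursor genes, which include the other main dividing cell of adult brain, had a median of -0.01 over 9 genes, with 5 below 0, a summed level of 186 and 184 FPKM and 0 calls by the authors' test (1 lower at an unadjusted p under 0.05). No marker of the endothelial, ependymal, choroid plexus and precursor lists found in the table was at 0 FPKM in either group. Spiny neuron genes marked the tissue as striatal, with Ppp1r1b at 829 and 795 FPKM, and had a median of -0.03 over 10 genes with 0 calls by the authors' test (3 lower at an unadjusted p under 0.05). General markers of mature neurons had a median of 0.01 over 6 genes, of which Camk2a, a synaptic kinase subunit, rose (554 to 595 FPKM, q = 0.00915). The part of the endothelial, ependymal and choroid plexus differences in the members' values was not tested.

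Fold changes in the table as a whole also moved with transcript composition. Across 12634 records of at least 1 FPKM with a matched transcript, Spearman's rho of the log2 fold change was -0.30 with transcript GC content and 0.18 with transcript length, as a description over genes. The members resembled the table in both, with a median GC content of 49.6% (49.9% over all tested records) and a median length of 3422 bases (3331 over all). With the trend removed, the 29 members of at least 1 FPKM had a median of -0.15, Sox11 was at -0.46, Ccnd2 at -0.40, Cd24a at -0.56 and Marcksl1 at -0.21. Mitochondrially encoded mRNAs made up 6.74% of all FPKM after saline and 8.15% after cocaine. The summed FPKM of all other records was 523153 after saline and 522983 after cocaine, and the median log2 fold change of all records of at least 1 FPKM was -0.02.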

How the data were processed

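RNA sequencing of nucleus accumbens from 3 cocaine and 3 saline libraries was analysed from 1 table of the whole series. TopHat2 2.0.6, Cufflinks 2.0.2 and the build NCBIM37 are named in the submitters' processing notes, and the sources used here give no settings, annotation or strand handling. The authors deposited 1 value per group and gene, treated here as FPKM because the layout is that of a Cuffdiff table, beside the log2 ratio, p-value and q-value of their own test. The deposited log2 fold changes were within 1.28e-05 of those recomputed from the group values. Without library values no test was run here, no replicate could be left out and depth is unknown. That p-values may reflect only technical spread follows from labels that name no animals.

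Of 21540 records, the 14959 marked as tested were kept, and 11 with an infinite ratio were left out of medians. For a symbol with several records the one with the highest mean FPKM was taken. The rule for named genes was every member and, from companion lists, called genes with the smallest p, at most 3 per list; other companion genes were chosen after their values were seen. The members and lists were chosen with earlier results of these data known. Transcript GC content and length were those of the longest GENCODE mouse M21 transcript (97.4% of records of at least 1 FPKM matched), and the trend was removed as the median of 10 by 10 cells. Promoters came from RefSeq; for 16 of 21 a stretch after the start matched a GENCODE transcript on the printed strand, and for 0 on the other strand; Mcm6, Mcm5 and Sox11 were among those without a match. The adjustment and trend scripts were tested on simulated data. Python 3.11 and pandas 2.3.3 were used.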

Additional observations from a re-analysis of the deposited data

How the results depend on the processing

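The 4 lower and 0 higher members were the counts at a deposited q under 0.05, at a q under 0.1, with the Benjamini-Hochberg adjustment recomputed from the deposited p over all tested records or over those of at least 1 FPKM, and with Nrep added after seeing the data. A q under 0.1 could not change the count, because no member lay between Cd24a (deposited q = 0.0138) and Mki67 (deposited q = 0.190). The recomputed adjustments rest on the same deposited p-values, so the equal counts are no separate support. At an unadjusted p under 0.05 the count was 10 lower and 0 higher. The neuroblast median, -0.21 as reported, lay between -0.14 (without Sox11, Ccnd2 and Cd24a) and -0.23 under the alternatives run. The dividing-cell median, -0.28 as reported, was -0.15 with a pseudocount of 1 FPKM, -0.17 at a minimum of 1 FPKM, -0.080 at 5 FPKM and -0.13 once the trend with GC content and length was subtracted, the last without the 3 members under 1 FPKM. At 5 FPKM the dividing-cell members left were Pcna and Hmgn2. The difference of medians, neuroblast minus dividing-cell, was 0.07 as reported and reversed to -0.022 with a pseudocount of 1 FPKM, -0.040 at a minimum of 1 FPKM, -0.15 at 5 FPKM and -0.033 with the trend removed. It was 0.11 with Ccnd2 among the dividing-cell genes and 0.14 without Sox11, Ccnd2 and Cd24a. Among single members Dcx turned to -0.037 and Dlx6 to 0.014 with the trend removed, and Dlx6 to 0.0044 when centred on the median of all records of at least 1 FPKM. The fold change of 11 members moved by over 1.5 times with a pseudocount of 1 FPKM. Removing the low-value members is what the FPKM minimum does, and the trend-removed setting covers the same members as the minimum of 1 FPKM. Other causes were not tested. No paired analysis was possible because the table holds 1 value per group and no value per library. For the same reason no library could be left out.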
